A study of Bos taurus with 16 samples.

Results

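MMP1, MMP3, MMP12 and MMP13 encode matrix metalloproteinases, secreted zinc-dependent enzymes that cut the proteins between cells, and lie beside each other on bovine chromosome 15. On the array these 4 genes were read by 11 of 43653 probes, namely every probe that is not a control and that the array design names after 1 of them. There were 3 probes for MMP1, 4 for MMP3, 1 for MMP12 and 3 for MMP13. The genes were chosen because earlier results on the same arrays had shown large falls after day 10, so their differences from day 10 are given as descriptions without a test. The RNA came from forceps biopsies of the uterine lining (endometrium), taken from the horns of the uterus in 4 fertile cows. Each cow was sampled at nominal days 10, 30, 50 and 100 after parturition, and the true days lay within 9 to 10, 29 to 30, 49 to 51 and 99 to 100. Each of the 16 biopsies was hybridised to 1 single-colour array, which gave 4 arrays per time, 1 from each cow, and every animal was compared with itself. The labels give no age, breed or treatment, all cows had calved, and a biopsy is bulk tissue in which fewer cells of a type and less RNA per cell cannot be told apart.

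Metalloproteinases of this family are secreted as inactive proenzymes and become active when their propeptide is removed. MMP1 and MMP13 are collagenases, which cut the triple helix of fibrillar collagen, MMP3 (stromelysin) cuts proteoglycans, fibronectin and other matrix proteins and also activates procollagenases, and MMP12 is the elastase of macrophages. Tissue inhibitors of metalloproteinases (TIMPs) block the active enzymes. After calving the bovine uterus shrinks, sheds caruncular tissue and breaks down much of the collagen laid down in pregnancy.

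The probes show which transcripts were read, and 1 probe of each gene is printed whole. These set the genes apart from each other, and that of MMP1 covers part of the active site. All are given from the 5′ end as the array files hold them, on chromosome 15 of build HGSC Btau_3.1, with no strand given for the coordinates. MMP1 probe 1 lies at chr15:4762221-4763283 and is split along the genome, since its 60 bases span 1063. Its capitals mark the codons of the first part of the catalytic zinc-binding site, and the probe ends before the site does.
MMP1 probe 1: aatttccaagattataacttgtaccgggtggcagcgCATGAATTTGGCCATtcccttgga
MMP13 probe 2 lies at chr15:4623160-4623219 and MMP3 probe 3 at chr15:4733287-4734269, where it is split as well. In these sequences the capitals mark the longest run that any probe of 1 gene shares with any probe of another of the 4 genes, which is 9 bases.
MMP13 probe 2: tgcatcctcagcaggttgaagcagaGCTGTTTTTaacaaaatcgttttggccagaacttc
MMP3 probe 3: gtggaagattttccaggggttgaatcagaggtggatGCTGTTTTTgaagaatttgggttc
The single probe of MMP12 lies at chr15:4717048-4717107.
MMP12 probe 1: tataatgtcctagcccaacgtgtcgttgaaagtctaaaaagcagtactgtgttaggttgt

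MMP1 probes 2 and 3, at chr15:4792583-4792641 and chr15:4792604-4792663, overlap by 38 bases and so are not independent readings. They differ there by 1 base, C46G, counted from 1 at the 5′ end of probe 2. The last 30 bases of that overlap are shown, with the differing base in capitals.
MMP1 probe 2: ctaccatcctgatacCcaagggacaacttt
MMP1 probe 3: ctaccatcctgatacGcaagggacaacttt
The other probes are MMP13 probe 1 at chr15:4620591-4622061 and probe 3 at chr15:4627334-4627393, and MMP3 probe 1 at chr15:4729362-4729421, probe 2 at chr15:4731543-4731601 and probe 4 at chr15:4734307-4734366. Of these MMP13 probe 1 is split along the genome too, over 1471 bases. Probes are numbered by their place along the transcript.

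Levels are log2 processed signals relative to the percentile 75 of their array, so a level of 0 equals that percentile. For each gene the probe with the highest mean signal represents it, which is MMP1 probe 2, MMP3 probe 3, MMP12 probe 1 and MMP13 probe 3. Between 61.1% and 76.9% of the probes on an array were well above background, fewest in cow 1 at day 10, and precision is limited by the number of arrays. Within a slide the day followed the position of the array on all 4 slides, so day and slide position cannot be told apart. Each slide held the 4 arrays of 1 cow, so cow and slide cannot be told apart either. Endometrial markers were present, with 9 of 9 fibroblast markers and 9 to 11 of 11 epithelial markers well above background on all 4 arrays of each day.

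MMP1, the interstitial collagenase, gave a bright signal at day 10 and a low but mostly measurable one afterwards. Its level at day 10 was 1.61, 3.02, 4.18 and 4.25 in cows 1 to 4. At day 30 it was -4.72, -4.94, -5.97 and -4.50, at day 50 -5.50, -4.88, -5.41 and -5.29, and at day 100 -7.21, -4.07, -3.79 and -4.88. Every later value lay below every day 10 value, and the lowest, in cow 1 at day 100, was the 1 value of this probe that was not well above background. As processed signals, in the scanner's intensity units, the later arrays read 6.86 to 52.6 and the day 10 arrays 3258 to 29408. The mean was 3.27 ± 1.24 at day 10, -5.03 ± 0.65 at day 30, -5.27 ± 0.28 at day 50 and -4.99 ± 1.55 at day 100 (SD, n = 4 each). The difference from day 10 was -8.30 at day 30, -8.54 at day 50 and -8.26 at day 100, each with a standard error of 0.63.

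The other MMP1 probes also placed all later values below those of day 10. Probe 3, which overlaps probe 2, read between -6.52 and -4.05 on the 12 later arrays, 11 of them well above background, and 1.30, 2.73, 4.10 and 3.77 at day 10. Probe 1, over part of the zinc site, read between -9.51 and -6.25 on the later arrays and -1.86, -0.52, 0.82 and 1.00 at day 10. Of the later arrays only that of cow 2 at day 30 was well above background. MMP1 probe 1 was at least 106-fold lower at day 50 than at day 10 and at least 86.1-fold lower at day 100. Such bounds are given where no later array was well above background: they set the day 10 mean against the mean of the dimmest signal that was well above background on each later array, or of the probe's own signal where that was higher. They hold for the mean of the 4 cows, take no account of its error, and are not bounds for each cow. They also refer to the processed signal alone, and the dimmest such signal is not a sharp limit of detection. MMP3 probe 3 in cow 4 at day 100, at -6.91, was not well above background, where the dimmest signal that was lay at -7.00.

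**Figure D1:**
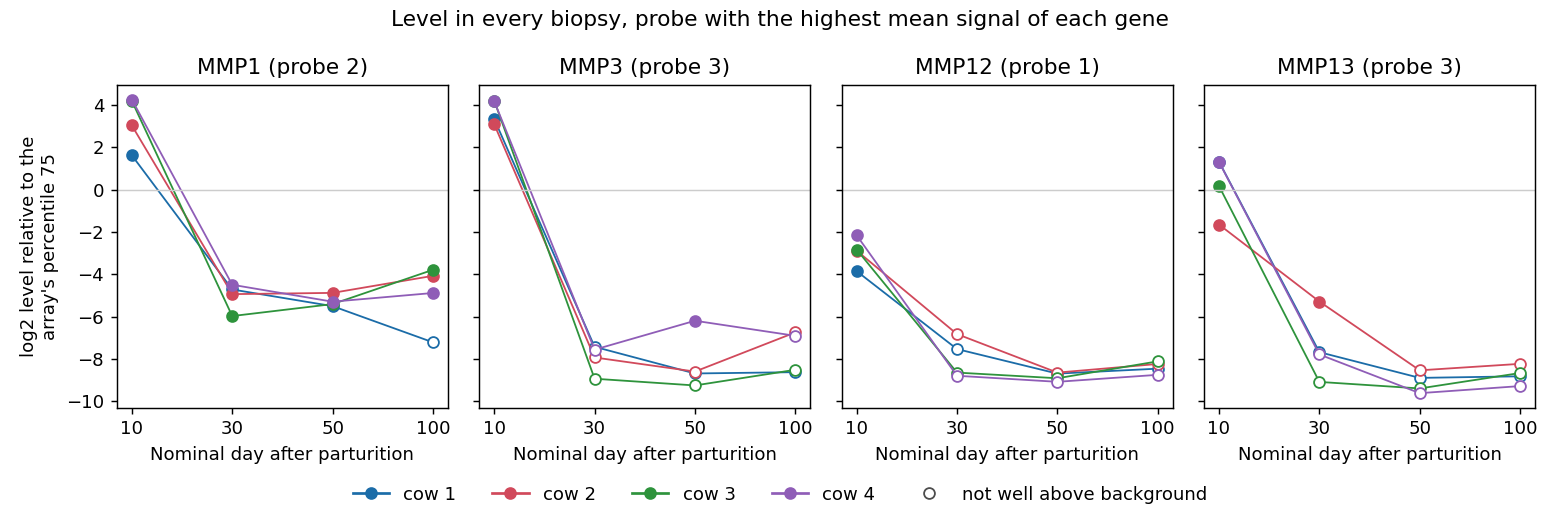
Log2 level relative to the percentile 75 of the array (y axis) by nominal day after parturition (x axis, days evenly spaced) for the highest-signal probe of each gene, with 1 point per biopsy, lines joining the biopsies of a cow and open points for spots not well above background. In each panel the 4 day 10 points lie above all 12 later points, and the later points are mostly filled for MMP1 and mostly open for MMP3, MMP12 and MMP13.

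MMP13, the other collagenase, was measured in all cows at day 10 and was at or near background later. The levels of MMP13 probe 3 at day 10 were 1.32, -1.65, 0.17 and 1.31 in cows 1 to 4. At day 30 they were -7.68, -5.29, -9.08 and -7.79, at day 50 -8.89, -8.53, -9.39 and -9.61, and at day 100 -8.82, -8.23, -8.66 and -9.28. No later value reached the day 10 range, and cow 2 at day 30, with a signal of 28.1, was the only later array of this probe well above background. Cow 2 thus had both the lowest MMP13 level at day 10 and the highest at day 30, a difference of -3.63 within that animal against -8.99, -9.25 and -9.09 in cows 1, 3 and 4. The mean was 0.28 ± 1.40 at day 10, -7.46 ± 1.58 at day 30, -9.11 ± 0.49 at day 50 and -8.75 ± 0.43 at day 100 (SD, n = 4 each). The difference was -7.74 at day 30 (standard error 0.77), set in part by the floor of the scanner's signal in cows 1, 3 and 4, and MMP13 was at least 142-fold lower at day 50 and at least 116-fold lower at day 100.

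MMP13 probes 1 and 2 were well above background on no later array and on all 4 day 10 arrays. Probe 1 read -0.68, -3.87, -1.97 and -0.73 at day 10, and probe 2 read -0.33, -3.53, -1.72 and -0.59. In all 3 MMP13 probes cow 2 was the lowest at day 10. MMP13 probe 1 was at least 25.2-fold lower at day 30, 33.1-fold at day 50 and 27.0-fold at day 100. For MMP13 probe 2 the bounds were 30.5-fold at day 30 and 32.6-fold at day 100.

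MMP3, the stromelysin, gave a bright signal at day 10 and was at background on nearly every later array. The levels of MMP3 probe 3 at day 10 were 3.33, 3.08, 4.19 and 4.17 in cows 1 to 4, with processed signals of 9871 to 27822. At day 30 they were -7.42, -7.93, -8.93 and -7.56, at day 50 -8.68, -8.59, -9.25 and -6.19, and at day 100 -8.62, -6.74, -8.51 and -6.91. The later values did not overlap with those of day 10, and 1 of the 12, in cow 4 at day 50 with a signal of 19.2, was well above background. MMP3 was at least 1146-fold lower at day 30 than at day 10 and at least 1205-fold lower at day 100. At day 50 the difference was -11.87 with a standard error of 0.53, on means of -8.18 ± 1.36 at day 50 and 3.69 ± 0.57 at day 10 (SD, n = 4 each). With 3 of the 4 day 50 readings not well above background, that value and its error are set in part by the scanner's floor, and it is no bound.

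The other 3 MMP3 probes lay in the same order. MMP3 probe 1 read 0.19 to 1.26 at day 10, probe 2 read 1.48 to 2.72 and probe 4 read 2.16 to 3.33. On the later arrays probes 1 and 2 were never well above background, and their bounds ran from at least 137-fold for MMP3 probe 1 at day 30 to at least 495-fold for MMP3 probe 2 at day 50. Probe 4, at the 3′ end of the transcript among the 4 probes, was well above background in cow 3 at day 30 at -4.66 and in cow 4 at day 50 at -6.39. In cow 4 at day 50 probe 3 was measured as well, whereas in cow 3 at day 30 probes 1, 2 and 3 were at -8.82, -9.01 and -8.93, so that value rests on 1 probe.

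MMP12, the macrophage elastase, was measured in all cows at day 10 and was not well above background on any later array. Its probe read -3.85, -2.88, -2.83 and -2.16 at day 10 in cows 1 to 4, with processed signals of 73.7 to 348. The readings spanned -8.79 to -6.82 (day 30), -9.08 to -8.64 (day 50) and -8.75 to -8.11 (day 100), all below the day 10 values. MMP12 was at least 11.6-fold lower at day 30, 15.3-fold at day 50 and 12.4-fold at day 100. The measured differences were -5.02, -5.90 and -5.46 with a standard error of 0.43 each, and they are set in part by the floor of the scanner's signal.

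**Figure D2:**
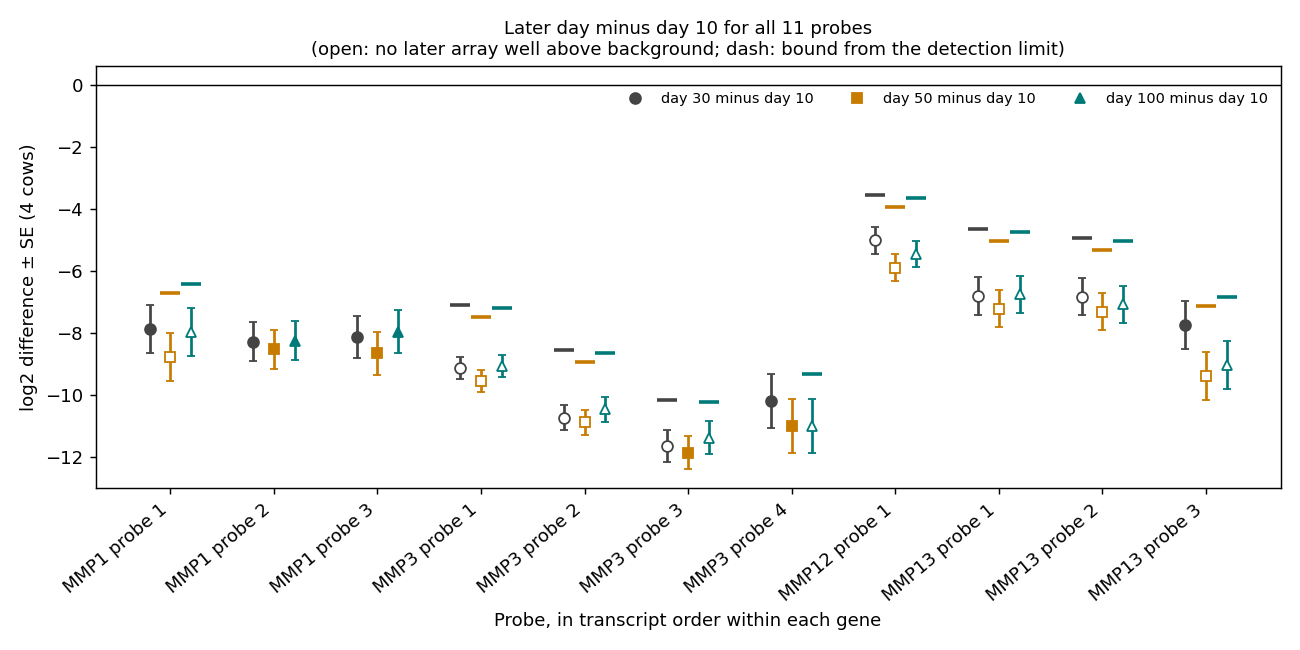
Difference in log2 level, later day minus day 10 (y axis), for each of the 11 probes in transcript order within a gene (x axis), with standard errors from the fit over 4 cows and a separate symbol per day. Open symbols mark differences where no later array was well above background and short dashes their bounds. Every difference lies between -11.87 and -5.02.

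Across the 11 probes every one was well above background on the 4 day 10 arrays, and 5 were so on day 10 arrays only. Those 5 and the rest of the 9 probes other than MMP1 probes 2 and 3 had fewer than 4 later arrays well above background. These 9 probes entered the fit only through day 10, and the 5 had to differ. Among the 132 later readings of the 11 probes 27 were well above background, 22 of the 24 readings of MMP1 probes 2 and 3 and 5 of the 108 readings of the other 9 probes. In limma all 11 probes were called lower in each of the 3 differences from day 10, where 0.407% of the 33182 tested probes were called lower at day 30, 1.06% at day 50 and 3.14% at day 100. All 11 had every later value below every day 10 value, which 1.5% of the probes with a value on all arrays had. Since the 4 genes were picked by this contrast, nothing is read from these counts. With normexp background correction 8 of the 11 probes were called at day 30 and 9 at day 100, and at day 30 the count was 10 without cow 1 and 9 without cow 4.

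The differences among days 30, 50 and 100 are not the contrast that chose the genes, but the same later arrays entered that choice, so tests of them are not independent of it. No probe passed limma's two-sided test in any of the 3 differences after Benjamini-Hochberg adjustment over all tested probes (0% called), although 3093, 4237 and 1041 of 33182 had an unadjusted p under 0.05 for day 50 minus 30, day 100 minus 30 and day 100 minus 50. None of the 11 probes of the 4 genes had an unadjusted p under 0.05, the lowest being 0.0549. For the 9 probes other than MMP1 probes 2 and 3 this compares readings mostly near the scanner's floor and says nothing of a change or of its absence. The difference of MMP13 between day 50 and day 30, -1.65, rests on 8 readings of which 7 were not well above background.

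MMP1 was the gene for which the later days could be compared above background. MMP1 probe 2 differed by -0.24 between day 50 and day 30 (95% interval -1.62 to 1.14, limma adjusted p = 0.913) and by 0.04 between day 100 and day 30 (-1.34 to 1.42, adjusted p = 0.985). Between day 100 and day 50 the difference was 0.28 (-1.10 to 1.66, adjusted p = 0.953). By mean MMP1 level the days ranked 10, 100, 30 and 50, and the last 3 did not differ beyond their spread. Within animals the day 100 value lay above the day 30 value in cows 2 and 3, by 0.86 and 2.18, and below it in cows 1 and 4, by -2.49 and -0.39.

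At day 10 the representative probes of MMP1 and MMP12 ranked the cows in the same order, lowest in cow 1 and highest in cow 4, and MMP13 in another. The level of MMP1 spanned 2.63 log2 units between those cows by the representative probe, and cow 1 was the lowest in all 3 MMP1 probes. MMP1 probe 3 was highest in cow 3, at 4.10 against 3.77 in cow 4. MMP12 spanned 1.69 units. MMP13 was lowest in cow 2 in all 3 probes and highest in cows 1 and 4 by the representative probe, over a span of 2.97 units. MMP3 spanned 1.11 units and was higher in cows 3 and 4 than in cows 1 and 2. With 1 biopsy per cow and day, differences between animals, between pieces of tissue and between arrays or slides cannot be told apart.

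**Figure D3:**
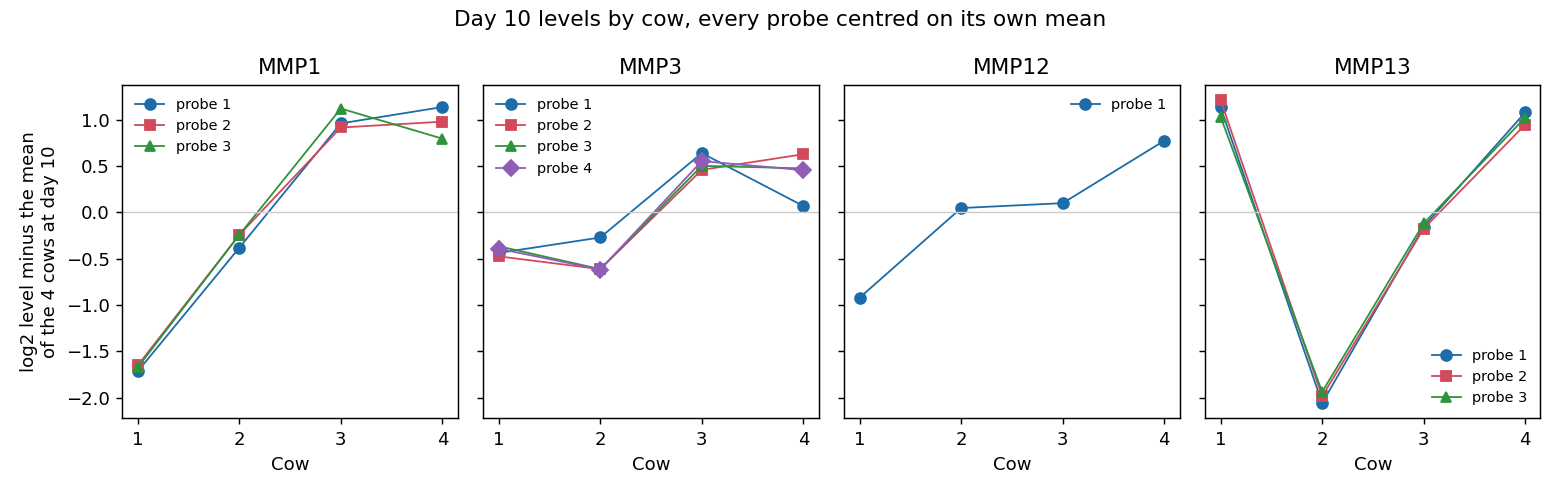
Day 10 level of each probe minus that probe's mean over the 4 cows (y axis, log2) by cow (x axis), with 1 line per probe and 1 panel per gene. The MMP1 lines are lowest in cow 1 and the MMP13 lines in cow 2. The lines of a gene run close together, except that MMP3 probe 1 lies apart from the other MMP3 lines in cows 2 and 4.

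Between genes, levels over the 16 arrays followed each other, as any genes high at day 10 alone would. Pearson's r of the representative probes lay between 0.94 for MMP1 with MMP13 and 0.97 for MMP1 with MMP3, as a description of 16 arrays that share cows and slides and fall into day 10 and later. Over the 4 day 10 arrays alone r was 0.91 between MMP1 and MMP12 and -0.07 between MMP1 and MMP13. Spearman's rank correlation over the 16 arrays was 0.81 between MMP1 and MMP3 and 0.59 between MMP3 and MMP12, where most later values are readings near the floor.

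The tested neighbours of the 4 genes on chromosome 15, DYNC2H1, DCUN1D5 and MMP7, did not pass limma's test in any difference from day 10. In the gene order of assembly ARS-UCD2.0 the 4 lie together as MMP13, MMP12, MMP3 and MMP1, with DYNC2H1, a dynein motor of cilia, and DCUN1D5, a factor of cullin neddylation, on the MMP13 side. DCUN1D5 differed from day 10 by -0.28 at day 30, -0.52 at day 50 and -0.64 at day 100 (limma adjusted p = 0.598, 0.254 and 0.113). DYNC2H1 differed by 0.83, 0.42 and 0.53 (adjusted p = 0.314, 0.554 and 0.349). Both were well above background on all 16 arrays. On the other side of MMP1 lie MMP8, MMP27, MMP20 and MMP7, of which MMP7, the matrilysin of epithelia, was tested. MMP7 read -2.52, 1.59, 0.58 and -1.99 at day 30 and 5.23, -0.26, 0.40 and 3.98 at day 10, so that cows 1 and 4 carried the gap, and its difference of -2.92 did not pass (adjusted p = 0.432). At day 50 the MMP7 difference was -4.25 and at day 100 -5.01, and neither passed (adjusted p = 0.185 and 0.0858).

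A list of genes near the cluster, BIRC2, BIRC3, TMEM123, DCUN1D5 and DYNC2H1, had 1 of 5 measured genes called at day 100 by limma and 0 at days 30 and 50 (1 and 2 at an unadjusted p under 0.05). Over all genes 1.81% were called higher at day 100, and 14.5% and 19.8% had such a p at days 30 and 50. The called gene was BIRC2, an inhibitor of apoptosis, which rose by 1.20 ± 0.25 at day 100 (SE, 4 cows, limma adjusted p = 0.0261). That call was lost without cow 1 (0.127), cow 3 (0.176), cow 4 (0.085) or the day 10 array of cow 1 (0.0806). MMP27 and MMP20 were well above background on at most 1 and 3 arrays and were not tested.

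MMP9 was the further family member whose fall passed the test on all 3 later days. MMP9 is a gelatinase that cuts denatured collagen and basement membrane collagen and is stored in neutrophil granules. Its level was -3.96, -3.17, -4.44 and -3.16 at day 30 in cows 1 to 4, against 2.54, 0.33, 0.37 and 0.06 at day 10, with no overlap and all 16 arrays well above background. MMP9 fell by 4.50 ± 0.49 at day 30, by 4.96 ± 0.49 at day 50 and by 5.02 ± 0.49 at day 100 (SE, 4 cows, limma adjusted p = 0.0025, 0.000993 and 0.000825). At day 30 MMP9 no longer passed without cow 2 (0.0572) or cow 3 (0.0546).

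MMP14, the membrane-bound metalloproteinase that activates MMP2 and MMP13, fell at the 2 later times. It read -0.63, -0.11, -0.12 and -0.92 at day 10, -2.82, -4.04, -2.93 and -2.63 at day 50 and -4.59, -3.10, -4.83 and -3.81 at day 100. MMP14 fell by 2.66 ± 0.51 at day 50 and by 3.64 ± 0.51 at day 100 (SE, limma adjusted p = 0.0321 and 0.00665), and its difference of -2.38 at day 30 did not pass (0.0721). Leaving out any cow ended the day 50 call (adjusted p of 0.0743 to 0.173), and leaving out cow 1 or cow 3 ended that at day 100 (0.0712 and 0.0526).

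Of 19 other metalloproteinase genes listed, 13 were on the array and 11 were measured. In these 1 was called lower at day 30, 2 at day 50 and 2 at day 100, with none higher, where 0.485%, 1.29% and 3.07% of 13207 genes were called lower with 1 probe per gene, and 0.727% and 1.81% higher at days 50 and 100. The median difference of the 11 genes was -1.09, -0.77 and -1.45, against 0.02, -0.03 and 0.01 over all genes. The number called at day 100 was 1 without cow 1 or cow 3, 4 without cow 2 and 6 without the day 100 array of cow 2 alone. MMP2, the gelatinase of fibroblasts, read 1.91 to 2.75 at day 30 and 3.27 to 3.54 at day 10, a difference of -1.09 that did not pass (adjusted p = 0.35).

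**Figure D4:**
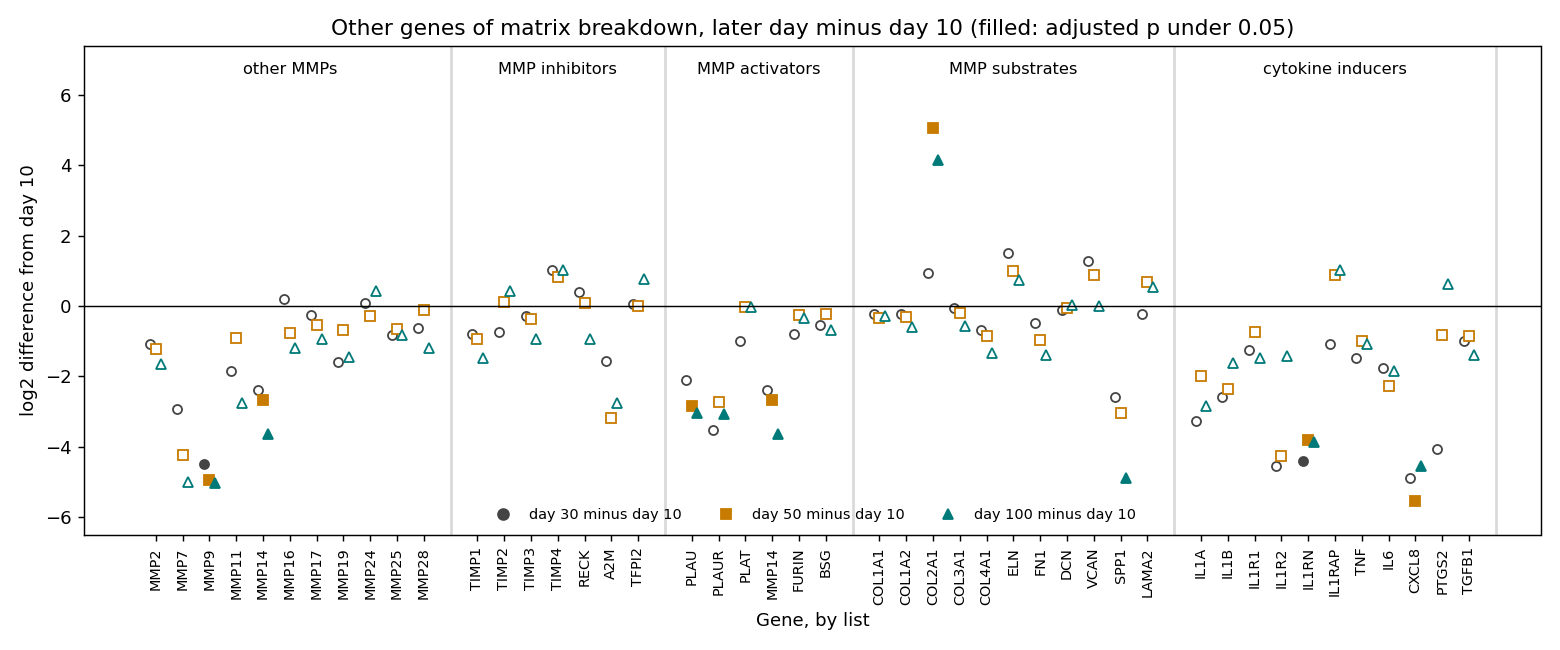
Difference in log2 level, later day minus day 10 (y axis), for the measured genes of 5 lists (x axis), with a symbol per day, filled where the limma adjusted p was under 0.05. MMP9 is filled on all 3 days and COL2A1 is the gene with filled points above 0.

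None of the 7 metalloproteinase inhibitors passed in any difference from day 10 in limma, while 2, 1 and 3 of them had an unadjusted p under 0.05 on the 3 later days. Over all genes 14.5%, 19.8% and 25.7% had such a p. The 4 TIMP genes, RECK, A2M and TFPI2 had a median difference of -0.29 at day 30, -0.01 at day 50 and -0.94 at day 100. TIMP1 read 1.57 to 2.80 at day 30 and 2.08 to 3.59 at day 10, ranges that overlap, with a difference of -0.79 (adjusted p = 0.518). TIMP3 differed by -0.29 at day 30 (adjusted p = 0.802). Without the day 100 array of cow 2 there were 3 calls at day 100 and 1 at day 50, and without cow 2 there were 2 and 1.

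Of 6 measured activators of metalloproteinases none was called at day 30 by limma (5 at an unadjusted p under 0.05), 2 were lower at day 50 and 3 at day 100, with medians of -1.55, -1.45 and -1.85. Over all genes 14.5% had such a p at day 30, and 1.29% and 3.07% were called lower at days 50 and 100. PLAU, the urokinase that makes plasmin, fell by 2.83 ± 0.53 at day 50 and by 3.03 ± 0.53 at day 100 (SE, limma adjusted p = 0.03 and 0.0146). PLAUR, the urokinase receptor, read -3.16, -3.83, -2.61 and -3.17 at day 100 and 0.75, -2.05, -0.81 and 1.67 at day 10, and fell by 3.08 ± 0.68 (adjusted p = 0.0318). The remaining calls were those of MMP14. Without the day 10 array of cow 1 there were 0 calls at day 50 and 1 at day 100, and without cow 1 or cow 3 there were none on either day. PLAU passed on neither day without cow 1, cow 3, cow 4 or the day 10 array of cow 1 (adjusted p of 0.0698 to 0.186 at day 50 and of 0.0613 to 0.118 at day 100). PLAUR did not pass without any of these or without the day 100 array of cow 1 (0.0548 to 0.138).

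Of the matrix proteins that these enzymes cut, 11 were measured. Limma called none of these substrates at day 30 (1 at an unadjusted p under 0.05) and 1 higher at day 50. At day 100 it called 1 lower and 1 higher. Over all genes 14.5% had such a p at day 30, and 0.727% were called higher at day 50. At day 100 3.07% of all genes were called lower and 1.81% higher. The substrate medians were -0.21, -0.20 and -0.29 on the 3 later days. COL1A1, a chain of the type I collagen that collagenases cut, differed by -0.22, -0.35 and -0.29 (limma adjusted p = 0.685, 0.498 and 0.44), and COL3A1, the chain of type III collagen, by -0.04, -0.20 and -0.56 (0.977, 0.86 and 0.476). SPP1, or osteopontin, a secreted glycoprotein that MMP3 cuts, read -4.23, -2.74, -2.93 and -3.42 at day 100 and -1.30, 2.75, 3.93 and 0.92 at day 10, and fell by 4.90 ± 0.80 (adjusted p = 0.0118). This call was lost without cow 3 (0.0969) or cow 4 (0.073).

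COL2A1, best known as the collagen of cartilage, was the substrate that rose. Its level was -1.37, -4.20, 0.03 and -0.64 at day 50, all well above background, and -6.92, -6.67, -4.55 and -8.34 at day 10, where 1 of 4 arrays was. Each day 50 value lay above every day 10 value. COL2A1 rose by 5.07 ± 0.88 at day 50 and by 4.16 ± 0.88 at day 100 (SE, 4 cows, limma adjusted p = 0.0249 and 0.0276). These sizes are set in part by the scanner's floor at day 10, and with normexp they were 2.80 and 2.55. The day 50 call was lost without cow 1 (0.156), cow 3 (0.159), cow 4 (0.0537) or the day 10 array of cow 1 (0.0881). That at day 100 was lost without cow 1 (0.0949), cow 3 (0.173), cow 4 (0.0848) or that array (0.0853), and without the cow term (0.0528).

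Interleukin-1 and related cytokines induce collagenase and stromelysin transcription in fibroblasts, and 11 of 13 such genes and their receptors were measured. Of these 1 was called lower at day 30, 2 at day 50 and 2 at day 100, with medians of -2.59, -1.99 and -1.47, where 0.485%, 1.29% and 3.07% of all genes were called lower. The genes called were IL1RN and CXCL8, an antagonist of the interleukin-1 receptor and a chemokine that attracts neutrophils, neither of which is an inducer itself. IL1RN fell by 4.40 ± 0.68 at day 30 (SE, limma adjusted p = 0.0222), and CXCL8 fell by 5.54 ± 1.09 at day 50 (adjusted p = 0.0354). IL1B read -2.94, -2.97, -1.99 and -2.04 at day 30 and 1.69, -2.22, -1.46 and 2.41 at day 10, so that cows 1 and 4 were high at day 10 and cows 2 and 3 were not, and its difference of -2.59 did not pass (adjusted p = 0.183). Without any 1 cow, or without the day 10 array of cow 1, no gene of this list was called at day 30 or day 50. At day 100 IL1RN did not pass without cow 3 (0.119), cow 4 (0.08) or that array (0.0607), and CXCL8 not without cow 1, cow 3, cow 4 or that array (0.113 to 0.182).

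Neither the transcription factors that act on metalloproteinase promoters nor the steroid receptors were called on any later day in limma. Of 16 measured factors of the AP-1, ETS and related families 0 passed, and 7, 7 and 3 had an unadjusted p under 0.05, against 14.5%, 19.8% and 25.7% of all genes, with medians of -0.94, -0.66 and -0.43. FOS, a subunit of AP-1, differed by -2.05 at day 30 (adjusted p = 0.326), and FOSL1 by -3.44 (0.153). Of 4 measured receptors 0 passed, with 0, 3 and 3 at an unadjusted p under 0.05, and PGR, the progesterone receptor, differed by 0.18, -0.93 and -0.98 (adjusted p = 0.822, 0.151 and 0.0894). Without the day 100 array of cow 2 alone 2 factors were called at day 50.

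Macrophage markers were on average higher at day 10 than on the later days, and their day 50 range overlapped that of day 10. Their level is the mean of 14 measured markers of 16 listed, relative to all arrays. At day 10 this level was 1.76, 0.92, 1.49 and 2.55 in cows 1 to 4. It was lowest in cow 2, as MMP3 and MMP13 were by their representative probes, whereas MMP1 and MMP12 were lowest in cow 1. The macrophage level then spanned -1.31 to 0.31 (day 30), -1.59 to 0.96 (day 50) and -1.44 to 0.18 (day 100). In limma 8 of the 14 were lower at day 30, 6 at day 50 and 14 at day 100, against 0.485%, 1.29% and 3.07% of all genes. CSF1R, the receptor for the growth factor of macrophages, differed by -2.43, -2.02 and -2.24 (adjusted p = 0.0037, 0.0097 and 0.0039). No marker of this list was at background on all 4 arrays of any day, and 13 or 14 of the 14 were well above background on all 4, while MMP12, the macrophage elastase, was above background on no later array. These counts were 0 on all 3 days without cow 1, 0, 0 and 13 without cow 2, 4, 0 and 5 without cow 3, 0, 1 and 1 without cow 4, and 1, 2 and 6 without the day 10 array of cow 1. The part of macrophages in the day 10 signal of the 4 genes was not tested.

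Neutrophil markers were high in cows 1 and 4 at day 10, as MMP13 was, whereas MMP1, MMP3 and MMP12 ranked the cows in other orders. The level of 7 measured markers of 10 listed was 3.94, 0.36, 0.05 and 3.50 in cows 1 to 4 at day 10. MMP13 read 1.32 and 1.31 in cows 1 and 4 and -1.65 and 0.17 in cows 2 and 3 on those arrays. This cow pattern was not particular to neutrophils. At day 10 the macrophage, fibroblast, epithelial, T and NK cell and mast cell levels were also higher in cows 1 and 4 than in cows 2 and 3. Smooth muscle, endothelial and trophoblast levels did not have this pattern. MMP3 was higher in cow 3 than in cow 1, and MMP1 and MMP12 were lowest in cow 1, where the neutrophil level was highest. The part of neutrophils in the MMP13 signal was not tested. On the later arrays the neutrophil level spanned -1.67 to 0.07 (day 30), -1.18 to -0.53 (day 50) and -1.57 to 1.60 (day 100). In cow 1 at day 100, with the level of 1.60, all 11 probes of the 4 genes were not well above background. None of the 7 markers was called at day 30 or day 100 in limma. On each of these days 4 had an unadjusted p under 0.05, against 14.5% and 25.7% of all genes. At day 50 limma called 1 of the 7 lower, against 1.29% of all genes. This was S100A12, a granulocyte protein, by -5.14 (adjusted p = 0.0495). No neutrophil marker was called at day 50 when any 1 cow or the day 10 array of cow 1 was left out, or with no filter on dim probes.

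Some lymphocyte and mast cell markers were called in differences from day 10. Of 8 T and NK cell markers limma called 2 lower at day 100, NKG7 by -2.08 and CD4 by -0.81 (adjusted p = 0.0188 and 0.0479), and 0 at days 30 and 50 (2 on each at an unadjusted p under 0.05). Of 5 measured mast cell markers it called none at day 30 (1 at an unadjusted p under 0.05), 2 higher at day 50 and 1 at day 100. These were the proteases TPSB2, by 2.50 at day 50, and CPA3, by 3.43 and 3.38 (adjusted p = 0.0475, 0.047 and 0.0315). Over all genes 3.07% were called lower at day 100, and 0.727% and 1.81% higher at days 50 and 100. An unadjusted p under 0.05 was found in 14.5% and 19.8% of all genes at days 30 and 50. With normexp, or with no filter on dim probes, no mast cell marker was called at day 50 and 1 T and NK cell marker at day 100. No marker of either list was called without cow 1, cow 3, cow 4, the day 10 array of cow 1 or the cow term, and without cow 2 there were 1 T and NK cell call, at day 100, and 0 mast cell calls. None of 8 endothelial markers was called on any later day in limma. An unadjusted p under 0.05 was found for 1, 0 and 2 of them, against 14.5%, 19.8% and 25.7% of all genes.

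Epithelial and smooth muscle markers overlapped between day 10 and all later days. The fibroblast level spanned 0.14 to 0.81 (day 10), -0.17 to 0.29 (day 30), -0.26 to 0.05 (day 50) and -1.42 to 0.37 (day 100). Of the 9 fibroblast markers limma called 1 lower at day 100, against 3.07% of all genes, and 0 at days 30 and 50. On the 3 later days 2, 3 and 3 had an unadjusted p under 0.05, against 14.5%, 19.8% and 25.7% of all genes. The day 100 call was lost without cow 1, cow 3, cow 4 or the day 10 array of cow 1. The epithelial level ran from -3.56 in cow 2 to 2.67 in cow 1 at day 100, and the smooth muscle level from -3.84 in cow 1 to 2.28 in cow 2. These same 2 biopsies gave MMP1 levels of -4.07 and -7.21. At day 10 the epithelial level was -2.77 and -0.88 in cows 2 and 3 and 0.91 and 0.92 in cows 1 and 4. The part of tissue make-up in the cow differences was not tested. Trophoblast markers, which would mark remaining placenta, were called on no later day in limma in 3 measured genes of 7 (0 at an unadjusted p under 0.05), and PAG2, a placental glycoprotein, was well above background on at most 2 arrays.

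**Figure D5:**
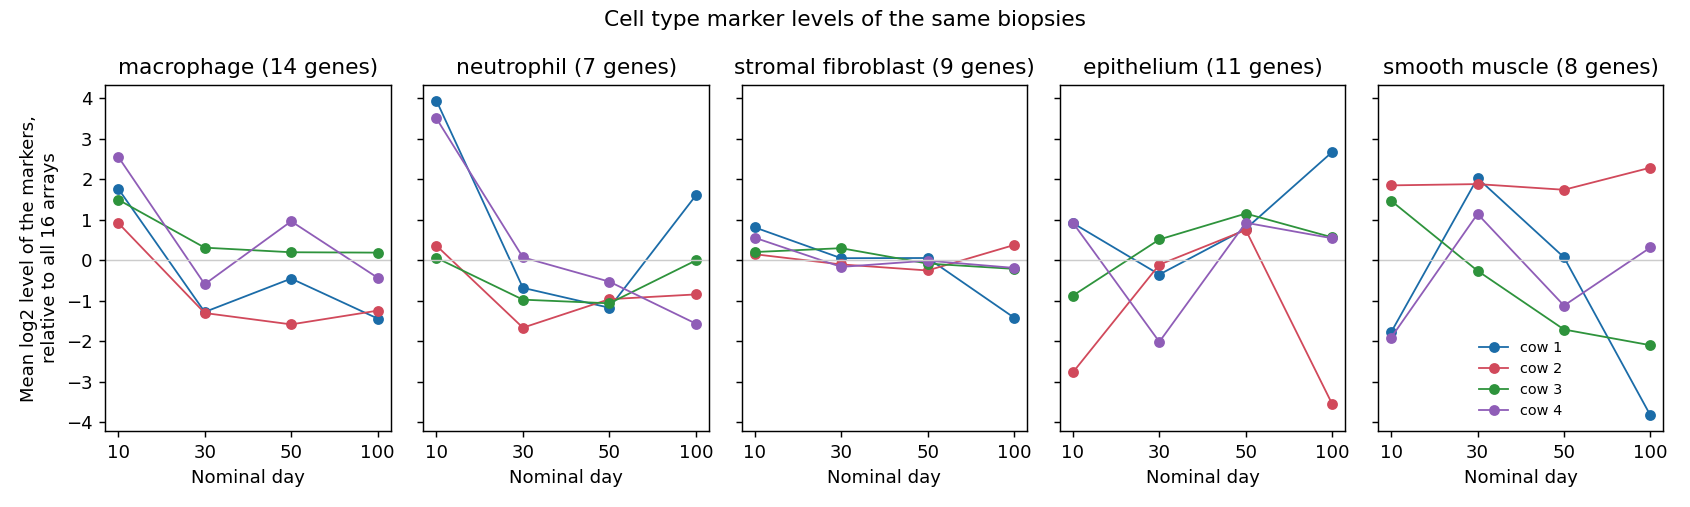
Mean log2 level of the measured markers of 5 cell types relative to all 16 arrays (y axis) by nominal day (x axis, days evenly spaced), with 1 line per cow. The macrophage points at day 10 lie between 0.92 and 2.55, the neutrophil points at day 10 at 3.94 and 3.50 in cows 1 and 4 and at 0.36 and 0.05 in cows 2 and 3, and epithelium and smooth muscle spread most at day 100.

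Among 13092 other genes with a value on every array, those most like the 4 in level over the 16 arrays were found by Pearson's r, which rests on the gap between day 10 and later. MMP9 ranked first for MMP13 at 0.95, in second place for MMP3 at 0.93 and for MMP12 at 0.91. For MMP1 the gene most like it was GRB10, an adaptor of insulin receptor signalling, at 0.91. For MMP3 the leading gene was SLC66A1, a lysosomal amino acid transporter, at 0.93, and for MMP12 ISG12(B), an interferon-induced gene, at 0.94. CSF2, a growth factor of myeloid cells, was among the 5 most alike for MMP12 and MMP13, at 0.90 and 0.93.

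Once each day's mean was taken out, the likeness of these genes was lower. The r over deviations was 0.79 for ISG12(B) with MMP12 and 0.80 for CSF2 with MMP13, 0.44 for MMP9 with MMP13, and -0.13 and -0.30 for MMP9 with MMP3 and MMP12. For MMP1 it was 0.32 with GRB10. GRB10 and SLC66A1 were well above background on all 16 arrays and differed from day 10 by about 1 log2 unit, -1.09 and -1.07 at day 100, so likeness here is of pattern and not of size. CSF2 was well above background on 1 later array and on the 4 day 10 arrays.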

How the data were processed

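The authors deposited scanner files with linear intensity values of 45220 spots an array, among them 1417 controls. Agilent Feature Extraction 11.5.1.1 had subtracted the background from the processed intensity and detrended it, with arrays left unscaled, per the file headers, which name build HGSC Btau_3.1. The submitters' processing notes name version 10.5.1.1. A log2 table of values, deposited as well, matched the log2 processed signal shifted by the array percentile 75 and centred on each probe (r of 0.99998 to 1, column medians of -0.16 to 0.22), which settles its scale, centring and direction, and was an alternative.

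Spots marked nonuniform were left out, 4 to 125 per array, none was saturated, log2 signals were shifted by the array percentile 75, and spots of a probe were averaged. The 33182 of 43653 probes that were well above background on 4 or more of 16 arrays were tested, and 10471 were left out. Symbols were updated through RefSeq genes of ARS-UCD2.0: 22204 probes matched by accession, 1171 by gene ID, 372 by synonym and 9847 by current symbol, and 10059 kept the file's name. Coordinates are those of the files.

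limma 3.58.1 in R 4.3.3 fitted day and cow over all 16 arrays, and p-values were adjusted by Benjamini-Hochberg over all probes tested, at a threshold of 0.05. The script was tested on simulated data. The cow term pairs biopsies of the same animal, as the labels state, and takes up the slide as well, since each cow had its own slide. The median correlation of deviations from the day means was 0.12 for 24 pairs of arrays of the same cow and -0.04 for 72 pairs from different cows. By cow it ran from 0.02 in cow 4 to 0.28 in cow 2. The parts of cow and slide in it cannot be told apart. Genes were represented by the tested probe with the highest mean signal, and lists by counts and medians.

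The 4 genes and all lists were chosen with earlier results of these data known. Genes named outside the 4 are up to 4 per list with the largest difference among those past the threshold, the neighbours, and the 5 genes most alike by Pearson's r; TIMP1, TIMP3, MMP2, COL1A1, COL3A1, IL1B, FOS, FOSL1, PGR, CSF1R, S100A12, NKG7, CD4, TPSB2, CPA3 and PAG2 were added after their values were seen. Promoter and protein sequences were not used here. The alternatives were normexp with an offset of 50, quantile normalization, the deposited value table, no filter on dim probes, no cow term, leaving out each cow, and other probes of a gene.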

Additional observations from a re-analysis of the deposited data

How the results depend on the processing

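The fit with no replicate block, without the cow term, kept all 11 probes of the 4 genes called lower on each later day, as did quantile normalization, the deposited value table and no filter on dim probes. Over all probes it called 57 at day 30 against day 10, where the fit with the cow term called 139, it called 1 substrate at day 100 against 2, and of the macrophage markers it called 1, 2 and 7 against 8, 6 and 14. Normexp with an offset of 50, which compresses dim signals, gave smaller differences: for days 30, 50 and 100 minus day 10, MMP1 -6.59, -6.88 and -6.21, MMP3 -7.46, -7.70 and -7.00, MMP12 -1.39, -1.75 and -1.09, and MMP13 -4.35, -4.77 and -4.05. It called 66 probes at day 30 and 16 for day 100 minus day 30, and 1 inhibitor and 1 steroid receptor at each of days 50 and 100. It turned the day 100 minus day 30 difference of MMP12 to 0.30 and of MMP13 to 0.31, and quantile normalization turned the day 100 minus day 50 difference of MMP13 to -0.076 and called 1 cytokine gene at day 100. In place of the representative probe, MMP3 probe 1 gave -9.13, -9.57 and -9.08 and MMP3 probe 4 gave -10.21 at day 30, MMP13 probe 1 gave -7.22 and -6.76 at days 50 and 100, and MMP13 probe 2 gave -7.32 and -7.08.

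Leaving out a cow, or the day 10 array of cow 1 or the day 100 array of cow 1 or of cow 2 (these 3 single arrays were chosen after seeing the data), gave 14 to 220 calls at day 30 against day 10, 21 to 970 at day 50 against day 10, 73 to 3100 at day 100 against day 10, 0 to 1 for day 50 minus day 30 and 0 to 112 for day 100 minus day 30. For days 30, 50 and 100 against day 10 the other metalloproteinases gave 0 to 1, 1 to 2 and 1 to 6 calls, and cytokine inducers 0 to 1, 0 to 2 and 0 to 3. For days 50 and 100, activators gave 0 to 2 and 0 to 3, inhibitors 0 to 1 and 0 to 3, substrates 0 to 1 and 0 to 3, AP-1 and ETS factors 0 to 2 and 0 to 1, and steroid receptors 0 to 1 and 0 to 1. MMP1 ran from -0.67 to 0.89 for day 100 minus day 30 and from -0.16 to 0.94 for day 100 minus day 50, and MMP3 from -0.16 to 0.75 for day 100 minus day 30 and from -0.75 to 0.13 for day 50 minus day 30. The causes were not tested. After day 10 most readings of MMP3, MMP12 and MMP13 lay near the scanner's floor, which in part sets their fitted differences, those among later days too. The bounds of at least so many fold hold for the mean of the cows and for the processed signal. The normexp differences of MMP3, MMP12 and MMP13 were smaller than the bounds of these genes.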
